A study of Mus musculus with 11 samples.

Results

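Bone morphogenetic protein (BMP) signalling was described through 9 genes of the 21684 in the deposited table: the ligands Bmp2 and Bmp4, the secreted antagonists Grem1 and Nog, the target genes Id1, Id2 and Id3, and the feedback inhibitors Smad6 and Bambi. They were taken by gene symbol, and all 9 were in the table. Grem1 was chosen because it was strongly read in WT and nearly absent in the knockout lines, so its levels are given as a description with no test. The other 8 were chosen by their place in the pathway, with earlier results of these data known.

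RNA was sequenced from NIH/3T3, an established line of mouse embryonic fibroblasts, in 4 genotypes: WT (2 libraries), Xap5 KO, Nono KO and Sox5 KO (3 libraries each). Xap5 (mouse symbol Fam50a) is a nuclear protein, Nono an RNA-binding protein of nuclear paraspeckles, and Sox5 a transcription factor of the Sox family. Cells of every genotype, WT included, had grown in medium with calf serum and then spent 24 h without serum, which lets them form a primary cilium; the series asked which genes depend on these 3 factors in that state. The labels do not say how the knockouts were made or name separate clones, so each knockout was taken as 1 line. Nothing says that replicates came from separate cultures, so the p-values measure only the spread between these libraries.

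BMP ligands are secreted dimers that bring together type I and type II receptor kinases, which phosphorylate Smad1, Smad5 and Smad9. These join Smad4, enter the nucleus and switch on target genes, among which Id1, Id2 and Id3 are the best known in fibroblasts. Id proteins lack a DNA-binding region and hold E proteins such as Tcf3, Tcf4 and Tcf12 in inactive pairs. Gremlin (Grem1) and Noggin (Nog) bind ligands outside the cell, Smad6 blocks receptor signalling inside it, and Bambi is a receptor-like membrane protein without a kinase.

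The sequence before the start is shown for the 4 members that had a matched promoter sequence and enough counts to compare between genotypes. RefSeq promoter entries (GRCm38.p6) matched 5 of the 9 members, the fifth being Bmp4; Bmp2, Nog, Id1 and Bambi were not matched. Each stretch is the 250 bases before the start, 5′ to 3′ along the gene: Grem1 at chr2:113758649-113758898 on the minus strand, Id2 at chr12:25096093-25096342 on the minus strand, Id3 at chr4:136143572-136143821 on the plus strand and Smad6 at chr9:64022060-64022309 on the minus strand. Capitals mark every match, on either strand, to GGCGCC (bound by the BMP Smads), GTCTG or its reverse CAGAC (bound by Smad4), and AACAAT or its reverse ATTGTT (bound by Sox proteins). No 2 matches overlapped in these stretches.
Grem1: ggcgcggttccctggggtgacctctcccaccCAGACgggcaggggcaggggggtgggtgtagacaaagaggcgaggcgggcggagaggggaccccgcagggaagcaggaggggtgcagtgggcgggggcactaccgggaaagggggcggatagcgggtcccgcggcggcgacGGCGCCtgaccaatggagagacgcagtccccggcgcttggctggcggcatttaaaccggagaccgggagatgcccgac
Id2: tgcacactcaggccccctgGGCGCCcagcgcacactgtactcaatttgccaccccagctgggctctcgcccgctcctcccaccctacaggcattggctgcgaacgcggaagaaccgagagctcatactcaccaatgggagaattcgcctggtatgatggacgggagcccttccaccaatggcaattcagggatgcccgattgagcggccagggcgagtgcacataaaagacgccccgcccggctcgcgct
Id3: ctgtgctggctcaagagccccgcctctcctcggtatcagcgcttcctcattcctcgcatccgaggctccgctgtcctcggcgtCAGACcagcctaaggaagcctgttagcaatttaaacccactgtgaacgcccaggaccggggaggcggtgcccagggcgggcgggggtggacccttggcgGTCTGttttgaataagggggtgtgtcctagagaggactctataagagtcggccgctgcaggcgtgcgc
Smad6: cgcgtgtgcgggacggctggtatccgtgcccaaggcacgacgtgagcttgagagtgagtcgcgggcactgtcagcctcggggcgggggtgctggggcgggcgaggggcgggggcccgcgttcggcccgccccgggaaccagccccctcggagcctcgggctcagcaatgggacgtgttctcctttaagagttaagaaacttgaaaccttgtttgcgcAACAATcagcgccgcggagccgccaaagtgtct

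The stretch of Grem1 held 1 GGCGCC, starting 78 bases before the start, and 1 CAGAC at 219 bases. Id2 held 1 GGCGCC at 231 bases. Id3 held CAGAC at 167 bases and GTCTG at 68 bases, and no GGCGCC. Smad6 held AACAAT at 33 bases and neither Smad motif, and the Bmp4 stretch held none of the 3. Of 32851 RefSeq promoter entries of the same length, 9.59% held GGCGCC, 42.2% held GTCTG or its reverse and 9.42% held AACAAT or its reverse. These matches describe letters and do not show binding.

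The libraries held 30205878 to 43498383 counts. In each knockout the targeted gene's RNA was below WT: Fam50a at 7.49 to 7.91 CPM (the count scaled to the depth of its library) in Xap5 KO against 62.9 to 64.8 in WT, Nono at 27.6 to 34.0 CPM in Nono KO against 350.8 to 357.4, and Sox5 at 12.6 to 13.9 CPM in Sox5 KO against 45.9 to 49.7. Sox5 RNA did not single out Sox5 KO, since it stood at 11.9 to 15 CPM in Xap5 KO and 7.01 to 8.75 CPM in Nono KO. All 10 fibroblast markers were read in every library, and the epithelial keratins Krt8 and Krt18 were at 0 in all 11. The 4 endothelial markers summed to 0.206 to 2.79 CPM with 1.41 to 2.79 in Nono KO and at most 0.772 elsewhere. The 4 leukocyte markers summed to 1.91 to 2.28 CPM in WT, 2.93 to 3.38 in Xap5 KO, 7.11 to 10.9 in Nono KO and 1.88 to 2.68 in Sox5 KO, with the T cell gene Cd3e at 0 in all 11 libraries. Most of the Nono KO sum was Ptprc, a leukocyte surface phosphatase, at 6.66 CPM against 0.107 in WT. The 5 smooth muscle markers summed to 153.7 to 163.8 CPM in WT, 1654.2 to 2046.3 in Xap5 KO, 2314.0 to 2816.9 in Nono KO and 2907.8 to 3259.1 in Sox5 KO. None of the 5 was at 0 in all libraries. Most of each sum was Acta2, at 144.3 CPM in WT and 1635.1, 2168.2 and 2840.1 in Xap5, Nono and Sox5 KO. The 5 did not move alike. Tagln rose with Acta2, from 14.1 CPM in WT to 194.2, 387.0 and 233.4 in the same knockouts. Des had 0 counts in both WT libraries and stood at 2.5, 1.08 and 1.93 CPM in those knockouts. Cnn1 stood at 0.156 CPM in WT and at 0.474, 1.81 and 0.0213 in the same knockouts. Myh11 stood at 0.212 CPM in WT and 0.213 in Sox5 KO. The part of these marker differences in the results below was not tested, and in bulk RNA fewer cells of a type and less RNA per cell cannot be told apart.

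WT also differed from every knockout in chromosome Y genes. Uty, Eif2s3y and Kdm5d stood at 34.5, 31.8 and 30.9 CPM in WT and at 0.0325 CPM or less on average in each knockout. Every comparison with WT is therefore also a comparison of cells with and without these RNAs. An effect of a knockout and a difference between the lines that came before it cannot be told apart.

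The BMP ligands and Noggin were hardly read. Bmp2 and Nog had 0 counts in all 11 libraries, and Bmp4 had 3 counts in WT replicate 2 and 0 in the other 10 libraries. A count of 0 allows up to 3 counts in a library, which is 0.0681 to 0.102 CPM depending on its depth, so an RNA below that level was not detectable. These limits cover counting error only. All 3 genes fell below the filter on low counts and were not tested, and the exons of Bmp4 overlap those of Gm15217 on the opposite strand. Neither of these ligands nor Noggin could therefore be compared between genotypes.

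Grem1, on chromosome 2, was chosen for its fall and had the largest gap between WT and the knockouts among the members. Id1, Id2, Id3 and Smad6 were also higher in both WT libraries than in any knockout library, by smaller gaps. Grem1 stood at 129.2 and 132.1 CPM in WT (5209 and 5820 counts). In Xap5 KO it stood at 0.515, 0.341 and 0.489 CPM, from 14 to 20 counts, and in the 3 Nono KO and the 3 Sox5 KO libraries it had 0 counts. No knockout library came near WT: the highest knockout level was 0.398% of the lowest WT level. The mean fell from 130.7 ± 2.01 CPM in WT (SD, n = 2) to 0.448 ± 0.094 in Xap5 KO (SD, n = 3), a log2 difference of -8.18. Against 3 counts in the shallowest library of the group, the fall of Grem1 was at least 1577-fold for the Nono KO group and at least 1285-fold for the Sox5 KO group. The few Xap5 KO counts were present in all 3 libraries, whereas the other 2 knockouts had none in 6.

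Measured per kilobase of exon, Grem1 stood at 31.5 CPM per kb in WT, and 9.58% of tested genes were higher there. Of 2220 genes at or above 100 CPM in both WT libraries, 2 were under 1 CPM in all 9 knockout libraries: Grem1 and Ddx3y, a chromosome Y helicase gene. Grem1 was chosen for this pattern, so the count is a description and carries no weight. Its limits also leave out genes that fell as far from a lower WT level, such as Uty. The 5 tested genes whose profile over the 11 libraries was most like that of Grem1 were Uty, Eif2s3y, Kdm5d, Pcdhgb4 and Ddx3y, of which Pcdhgb4 alone is not on chromosome Y. Likeness was the root mean square difference of log2 CPM profiles centred on their own mean, and it ran from 1.51 for Uty to 1.96 for Ddx3y, where Grem1 itself varied by 4.17 about its mean. Pcdhgb4, a clustered protocadherin gene on chromosome 18, stood at 11.2 CPM in WT and at 0.26, 0.148 and 0.0445 CPM in Xap5, Nono and Sox5 KO.

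**Figure D1:**
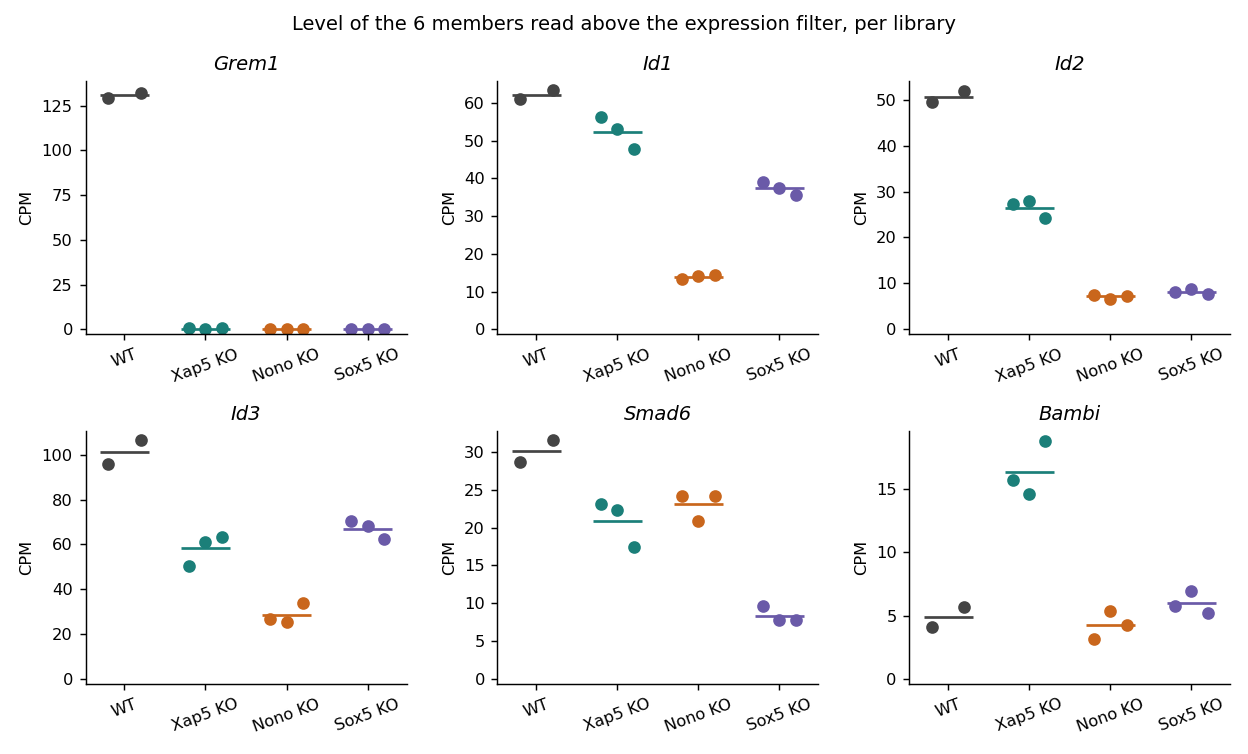
Level of Grem1, Id1, Id2, Id3, Smad6 and Bambi in CPM (vertical axes, linear, from 0), with 1 point per library and a line at the mean of each genotype. Grem1 stands at 129.2 and 132.1 CPM in WT and at 0.515 CPM or less in the 9 knockout libraries, while Bambi is highest in the 3 Xap5 KO libraries.

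The 3 tested genes beside Grem1 stayed nearer to WT than Grem1 did. Fmn1, the formin gene next to it that is known to hold distant control elements of Grem1, had 192.8 ± 0.249 CPM in the WT libraries (SD, n = 2). It was read at 142.0 ± 2.64, 158.0 ± 0.954 and 45.8 ± 3.37 CPM in Xap5, Nono and Sox5 KO (SD, n = 3 each). Fmn1 was lower in all 3 knockouts by the quasi-likelihood test of edgeR, whose p-values are given here after Benjamini-Hochberg adjustment, with log2 differences of -0.44 (SE 0.0607, adjusted p = 4.21e-06), -0.29 (SE 0.0608, adjusted p = 0.000505) and -2.07 (SE 0.0621, adjusted p = 1.15e-16). On the other side, Arhgap11a, a cell division gene, was lower in Sox5 KO only among the calls, by -0.46 (SE 0.1, adjusted p = 0.000448). It stood at 54.4 CPM in WT and at 57.4, 57.1 and 39.6 CPM in Xap5, Nono and Sox5 KO. Scg5, a secretory granule chaperone, had 14 to 78 counts per library and was called lower in Sox5 KO at -1.50 (SE 0.578, adjusted p = 0.0296). That call was lost without WT replicate 2 (adjusted p = 0.292) and without Sox5 KO replicate 1 (0.0647), 2 (0.058) or 3 (0.0708). Ryr3 had 0 to 7 counts per library, and Tmco5b and Gjd2 had 0 in all 11.

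Among the 8 members other than Grem1, 5 passed the filter: Id1, Id2, Id3, Smad6 and Bambi. Calls required an adjusted p under 0.05 over the 13332 genes tested. In Xap5 KO against WT, 4 of the 5 were lower and 1 was higher, where 45.5% of all tested genes were called. In Nono KO 4 were lower and none higher, against 48.6% of all genes called, and Bambi was not called. In Sox5 KO 4 were lower and none higher, against 60.9% of all genes called, and Bambi was again not called. The lower calls were the same 4 genes each time, and 22.3%, 25.1% and 30.3% of all tested genes were called lower in Xap5, Nono and Sox5 KO. The shares called higher were 23.2%, 23.5% and 30.6%. The median log2 difference of the 5 was -0.52, -1.82 and -0.73, beside 0.0, -0.02 and -0.01 over all tested genes. These comparisons share the WT libraries, so the calls are not independent of one another.

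Id1, on chromosome 2, fell most in Nono KO. Its level was 61.1 and 63.3 CPM in WT, 56.2, 53.2 and 47.7 in Xap5 KO, 13.3, 14.0 and 14.3 in Nono KO, and 39.0, 37.5 and 35.7 in Sox5 KO. No 2 genotypes overlapped, and the order from high to low was WT, Xap5 KO, Sox5 KO, Nono KO. Relative to the WT mean, Nono KO had 22.3% ± 0.787 of the Id1 RNA and Sox5 KO 60.1% ± 2.64 (SD, n = 3 each). The log2 differences were -2.17 in Nono KO (SE 0.0876, adjusted p = 1.96e-14) and -0.73 in Sox5 KO (SE 0.0854, adjusted p = 1.98e-07). In Nono KO 2.99% of tested genes had a lower log2 difference than Id1. In Xap5 KO, Id1 was at 84.2% ± 6.91 of WT (SD, n = 3), a log2 difference of -0.25 (SE 0.0851, adjusted p = 0.0219). That call was lost without WT replicate 1 (adjusted p = 0.0574), without WT replicate 2 (adjusted p = 0.13) or without Xap5 KO replicate 3 (adjusted p = 0.0793).

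Id2, on chromosome 12, fell in every knockout and had the lowest log2 value of the 3 Id genes in each. Its levels were 49.5 and 51.8 CPM in WT, 27.3, 28.0 and 24.2 in Xap5 KO, 7.55, 6.62 and 7.29 in Nono KO, and 8.16, 8.81 and 7.72 in Sox5 KO. WT and Xap5 KO stood well above the other 2 genotypes, whose libraries lay next to each other without overlap. Id2 was at 52.4% ± 3.98, 14.1% ± 0.944 and 16.2% ± 1.08 of WT in Xap5, Nono and Sox5 KO (SD, n = 3 each). The log2 differences were -0.93 (SE 0.105, adjusted p = 2.74e-07), -2.82 (SE 0.111, adjusted p = 1.15e-14) and -2.62 (SE 0.111, adjusted p = 2.91e-14). The median gene of chromosome 12 was itself at -0.75 in Sox5 KO, and relative to its chromosome's median Id2 was at -1.85 there (adjusted p = 7.41e-12).

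Id3, on chromosome 4, was the most abundant of the 3 per kilobase in WT together with Id1. It stood at 95.8 and 106.6 CPM in WT, 50.5, 60.9 and 63.2 in Xap5 KO, 26.6, 25.4 and 34.1 in Nono KO, and 70.3, 68.2 and 62.3 in Sox5 KO. Every knockout library was below WT, Nono KO was lowest, and Xap5 KO and Sox5 KO overlapped. Id3 was at 57.5% ± 6.66, 28.4% ± 4.61 and 66.2% ± 4.09 of WT in Xap5, Nono and Sox5 KO (SD, n = 3 each). The log2 differences were -0.80 (SE 0.113, adjusted p = 1.83e-05), -1.82 (SE 0.115, adjusted p = 6.09e-10) and -0.60 (SE 0.113, adjusted p = 0.000206). In Sox5 KO the value moved to -0.36 relative to its chromosome's median and to -1.03 with an offset for gene length and GC content, and it stayed called in both.

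Added per kilobase of exon, the 3 Id RNAs came to 126.5 and 135.3 CPM per kb in WT. They came to 87.9, 91.4 and 86.4 in Xap5 KO, 29.4, 29.0 and 34.3 in Nono KO, and 76.2, 74.1 and 68.7 in Sox5 KO. The genotypes did not overlap, and the group means were 130.9 ± 6.22 (SD, n = 2), 88.6 ± 2.57, 30.9 ± 2.95 and 73.0 ± 3.87 (SD, n = 3 each). The make-up of the sum differed as well. Id2 gave 15.9% ± 0.283 of it in WT (SD, n = 2), and 12.3% ± 0.666, 9.53% ± 0.9 and 4.63% ± 0.241 in Xap5, Nono and Sox5 KO (SD, n = 3 each). Id1 gave 41.0%, 51.0%, 38.8% and 44.2% in the same order, and Id3 gave 43.1%, 36.7%, 51.6% and 51.2%. Both Id1 and Id3 rank high in WT, where 4.84% and 4.48% of tested genes had more RNA per kilobase, while Id2 had 16.5% of tested genes above it.

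**Figure D2:**
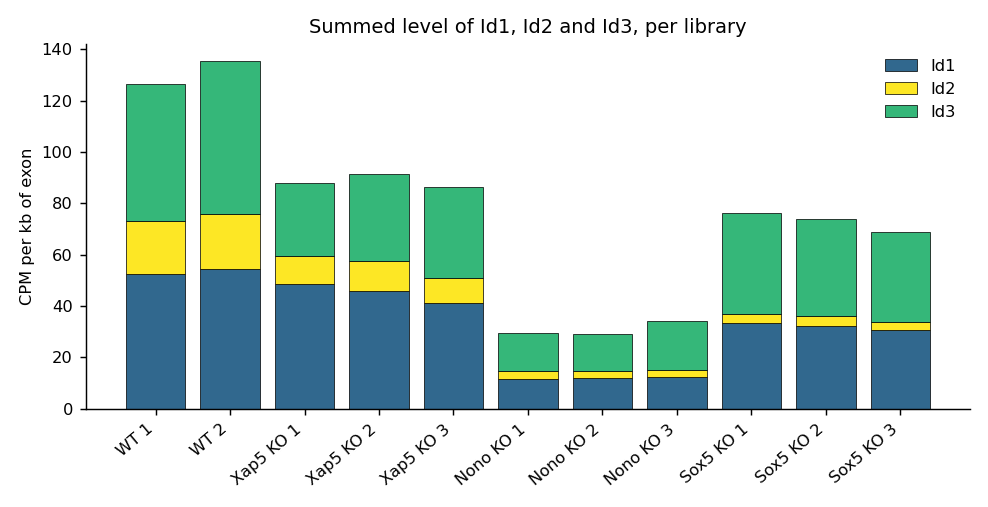
Summed level of Id1, Id2 and Id3 in CPM per kb of exon (vertical axis, from 0), 1 stacked bar per library in the order WT, Xap5 KO, Nono KO, Sox5 KO. The WT bars reach 126.5 and 135.3, the Nono KO bars 29.0 to 34.3, and the Id2 layer is thinnest in Sox5 KO at 4.63% of the bar.

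Smad6, the inhibitory Smad and itself a BMP target, fell most in Sox5 KO. It is on chromosome 9 and stood at 28.6 and 31.6 CPM in WT, 23.1, 22.3 and 17.4 in Xap5 KO, 24.2, 20.9 and 24.2 in Nono KO, and 9.59, 7.73 and 7.78 in Sox5 KO. Sox5 KO was below all other libraries, WT was above all others, and Xap5 KO and Nono KO overlapped. Smad6 was at 69.7% ± 10.2, 76.8% ± 6.35 and 27.8% ± 3.52 of WT in Xap5, Nono and Sox5 KO (SD, n = 3 each). The log2 differences were -1.84 in Sox5 KO (SE 0.135, adjusted p = 1.6e-10), -0.52 in Xap5 KO (SE 0.13, adjusted p = 0.00242) and -0.38 in Nono KO (SE 0.13, adjusted p = 0.0191). The Nono KO call was lost with the offset for length and GC content (-0.19, adjusted p = 0.225), without WT replicate 2 (-0.30, adjusted p = 0.183) and without Nono KO replicate 2 (-0.31, adjusted p = 0.0774). Relative to the median of chromosome 9, which was at 0.347 in Nono KO, the Smad6 value there was -0.74.

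Bambi, on chromosome 18, was the only one of the 5 that rose against WT, and it rose in Xap5 KO. It stood at 4.07 and 5.67 CPM in WT, 15.7, 14.6 and 18.8 in Xap5 KO, 3.13, 5.36 and 4.25 in Nono KO, and 5.78, 6.91 and 5.20 in Sox5 KO. The 3 Xap5 KO libraries were above all 8 others, and both Nono KO and Sox5 KO overlapped WT. The Xap5 KO mean was 336.2% ± 44.3 of WT (SD, n = 3), a log2 difference of 1.75 (SE 0.222, adjusted p = 1.49e-06). It was between 1.52 and 2.00 when any 1 library was left out. In Nono KO the log2 difference was -0.20 (SE 0.218, adjusted p = 0.481) and in Sox5 KO 0.29 (SE 0.219, adjusted p = 0.265), neither past the threshold. Bambi was the least abundant of the 5, at 0.96 CPM per kb in WT with 78.5% of tested genes above it.

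The knockouts were then compared with each other. The WT levels do not enter these differences, but all 11 libraries set the spread behind their SE and p. In Nono KO against Xap5 KO, 4 of the 5 tested members were lower and none higher, where 53.0% of all tested genes were called, 25.9% higher and 27.1% lower. In Sox5 KO against Xap5 KO, 4 were lower and none higher, with 61.6% of all genes called, 30.4% higher and 31.1% lower. In Sox5 KO against Nono KO, 3 were higher and 1 lower, with 63.5% of all genes called, 32.6% higher and 30.9% lower. Grem1 could be compared here only as 14 to 20 counts in each Xap5 KO library against 0 in each library of the other 2 knockouts.

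The 3 Id genes separated the knockouts in different ways. Id1 was lower in Nono KO than in Xap5 KO by a log2 difference of -1.92 (SE 0.0817, adjusted p = 6.1e-14), and lower in Sox5 KO than in Xap5 KO by -0.49 (SE 0.0778, adjusted p = 1.42e-05). It was higher in Sox5 KO than in Nono KO by 1.43 (SE 0.0818, adjusted p = 2.59e-12), and Id3 by 1.22 (SE 0.106, adjusted p = 1.98e-08). Id2 was lower than in Xap5 KO in both Nono KO (-1.89, SE 0.103, adjusted p = 2.91e-12) and Sox5 KO (-1.69, SE 0.103, adjusted p = 1.06e-11). Between Sox5 KO and Nono KO, Id2 differed by 0.20 (SE 0.107, adjusted p = 0.107), which did not pass the threshold. That value was called at 0.25 with scaling by library totals alone (adjusted p = 0.0438) and at 0.97 relative to the median of chromosome 12 (adjusted p = 1.23e-07). Id3 was lower in Nono KO than in Xap5 KO by -1.02 (SE 0.106, adjusted p = 3.36e-07). Id3 in Sox5 KO against Xap5 KO was at 0.20 (SE 0.103, adjusted p = 0.101), not called, and it was called with only the groups compared (0.20, adjusted p = 0.049) and without Nono KO replicate 3 (0.20, adjusted p = 0.0379). Its sign depended on the offsets: 0.49 relative to the chromosome (adjusted p = 0.000598) and -0.15 for length and GC content (adjusted p = 0.255).

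Smad6 was lower in Sox5 KO than in Xap5 KO (-1.32, SE 0.125, adjusted p = 9.1e-09) and than in Nono KO (-1.46, SE 0.125, adjusted p = 1.68e-09). Between Nono KO and Xap5 KO it differed by 0.14 (SE 0.118, adjusted p = 0.339), and by -0.11 relative to the chromosome. Bambi was lower than in Xap5 KO in both Nono KO (-1.95, SE 0.195, adjusted p = 3.48e-08) and Sox5 KO (-1.46, SE 0.192, adjusted p = 1.08e-06). Its difference of 0.49 between Sox5 KO and Nono KO (SE 0.197, adjusted p = 0.0362) was lost under DESeq2 (adjusted p = 0.0562), with only the groups compared (adjusted p = 0.0516), relative to the chromosome (0.36, adjusted p = 0.12) and in 4 of the 6 fits that left out a library of these groups: without Nono KO replicate 1 (0.31) or 3 (0.49) and without Sox5 KO replicate 1 (0.51) or 2 (0.37). The libraries of these 2 genotypes overlapped.

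**Figure D3:**
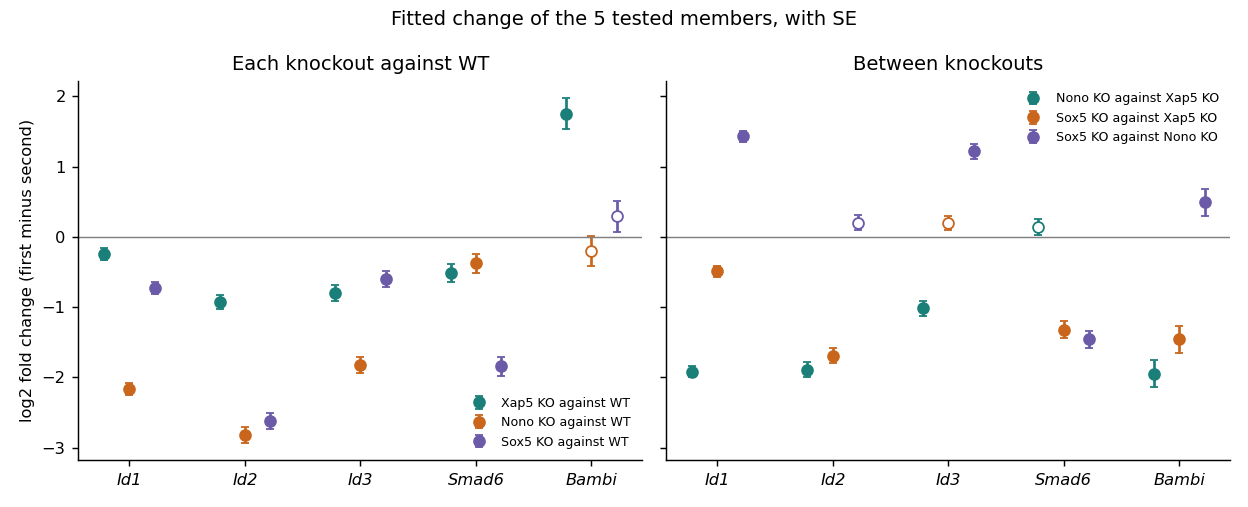
Log2 difference (vertical axis) of Id1, Id2, Id3, Smad6 and Bambi, each knockout against WT on the left and the knockouts against each other on the right, first named minus second named, with bars of 1 SE. Filled points passed an adjusted p under 0.05 and open points did not; Id2 in Nono KO is lowest at -2.82 and Bambi in Xap5 KO highest at 1.75.

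The nearest profiles to these members over the 11 libraries were found by the same measure as for Grem1, and 3 genes were listed for each. For Id1 they were Fzd3, a Wnt receptor (0.191), Inava (0.239) and C77080 (0.242). For Id2 they were Smoc1, a secreted BMP modulator (0.26), Plxnb1 (0.32) and Arhgap6 (0.325), and Smoc1 lies on chromosome 12 as Id2 does. Smoc1 stood at 18.9 CPM in WT and at 8.80, 3.51 and 2.78 in Xap5, Nono and Sox5 KO. For Id3 they were Nrn1 (0.171), Tcp11l2 (0.18) and Plcd3 (0.18), for Smad6 Ppp3ca (0.164), Spp1 (0.165) and Foxo3 (0.167), and for Bambi Cerk (0.268), Npr3 (0.278) and H2ac7 (0.35). Npr3, the natriuretic peptide clearance receptor, stood at 4.72 CPM in WT and at 21.2, 3.65 and 5.41 CPM in Xap5, Nono and Sox5 KO.

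The rest of the pathway was read through 63 further genes in 6 roles, all of them in the table and 43 of them tested. In Xap5 KO 5 were higher, 23 lower and 15 not called. In Nono KO the counts were 9, 15 and 19, and in Sox5 KO 5, 27 and 11. The medians were -0.22, -0.02 and -0.67, beside 0.0, -0.02 and -0.01 for all tested genes. The share called was 28 of 43, 24 of 43 and 32 of 43, to be read against 45.5%, 48.6% and 60.9% of all tested genes. By direction, 23.2%, 23.5% and 30.6% of all tested genes were called higher and 22.3%, 25.1% and 30.3% lower.

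Of 11 other ligands, 2 were tested. Bmp8a, Bmp10 and Gdf6 had 0 counts in all libraries, and Bmp3, Bmp5, Bmp6, Bmp7, Bmp8b and Gdf2 were below the filter. Gdf5, a ligand known from joint formation, had 11 and 17 counts in WT and 0 to 2 in Sox5 KO. It was called lower there (adjusted p = 0.00724) and was at least 3.3-fold lower against 3 counts; it was not called in Xap5 KO or Nono KO.

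Extracellular antagonists and modulators moved in both directions. Of 17 genes 12 were tested: 3 were higher and 8 lower in Xap5 KO, 5 higher and 3 lower in Nono KO, and 3 higher and 7 lower in Sox5 KO. Over all tested genes, 23.2%, 23.5% and 30.6% were called higher and 22.3%, 25.1% and 30.3% lower in these knockouts. Chrdl2, Cer1, Sost and Sostdc1 were at 0 in all 11 libraries.

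Follistatin (Fst), which binds activins and some BMPs, went from 0.844 CPM in WT to 2.87, 5.99 and 0.232 CPM in Xap5, Nono and Sox5 KO. It rose in Xap5 KO and Nono KO (log2 1.75, SE 0.419, adjusted p = 0.00172, and 2.81, SE 0.429, adjusted p = 1.35e-05) and fell in Sox5 KO (-1.84, SE 0.498, adjusted p = 0.00306). WT had 15 and 58 counts, and the Sox5 KO call was lost without WT replicate 2 (-0.66, adjusted p = 0.348). Leaving out 1 WT library moved the 2 rises: without WT replicate 1 they were 1.11 and 2.19, and without WT replicate 2 they were 2.93 and 4.00. Tll1, a protease that cleaves the antagonist Chordin, had 10 and 21 counts in WT, 0 to 2 in Xap5 KO, 0 to 10 in Nono KO and 0 in Sox5 KO. It passed the filter through the WT libraries, where it was highest, so its levels are given as a description and its calls carry no weight. It adds 1 to each of the 8 and 7 genes called lower above in Xap5 KO and Sox5 KO. The same holds for the 23 and 27 called lower in the whole pathway list.

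Of 9 receptors and co-receptors tested, 0 were higher and 4 lower in Xap5 KO, 1 higher and 1 lower in Nono KO, and 1 higher and 4 lower in Sox5 KO. These counts stand beside 45.5%, 48.6% and 60.9% of all tested genes called in either direction, and 22.3%, 25.1% and 30.3% called lower. The type II receptor Bmpr2 stood at 225.7 CPM in WT and at 207.2, 231.3 and 111.4 CPM in Xap5, Nono and Sox5 KO, and in Sox5 KO it fell by a log2 difference of -1.02 (SE 0.0596, adjusted p = 4.59e-12). The co-receptor Rgmb fell most in Xap5 KO, from 145.5 to 64.5 CPM (-1.17, SE 0.073, adjusted p = 2.97e-11). It was at 112.9 CPM in Nono KO (-0.37, adjusted p = 0.000268) and 108.9 in Sox5 KO (-0.42, adjusted p = 4.17e-05), the latter lost with the offset for length and GC content (-0.12, adjusted p = 0.17). Endoglin (Eng) was called in Nono KO at 0.97 (SE 0.352, adjusted p = 0.0279), from 1.54 to 3.00 CPM. Eng lost that call without WT replicate 1 (adjusted p = 0.0503), WT replicate 2 (0.171) or Nono KO replicate 1 (0.15), and with library totals alone (0.0594).

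Of 9 Smads and regulators tested, 5, 5 and 6 were lower in Xap5, Nono and Sox5 KO and 1, 2 and 1 were higher, beside 22.3%, 25.1% and 30.3% of all tested genes called lower. The receptor-activated Smad9 went from 22.9 CPM in WT to 15.6, 5.55 and 10.7, and its log2 difference was largest in Nono KO at -2.05 (SE 0.168, adjusted p = 1.89e-09). In Sox5 KO it was -1.10 (SE 0.165, adjusted p = 6.46e-06), and in Xap5 KO -0.55 (adjusted p = 0.00874), lost without WT replicate 2 (-0.32, adjusted p = 0.244). Smad7, the second inhibitory Smad, fell in all 3 knockouts, from 31.5 CPM to 19.7, 14.9 and 19.6, by -0.68 (adjusted p = 9.94e-05), -1.08 (adjusted p = 2.16e-07) and -0.68 (adjusted p = 4.93e-05). Skil, a Smad co-repressor, split the knockouts: it rose from 50.2 CPM to 72.0 in Xap5 KO (0.52, adjusted p = 0.000103) and 70.9 in Nono KO (0.50, adjusted p = 0.000148). It fell to 15.2 CPM in Sox5 KO (-1.72, SE 0.0955, adjusted p = 1.97e-12), and it was lower there than in Xap5 KO by -2.24 (adjusted p = 1.63e-14).

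Other target genes were lower wherever they were called, with 1 exception. Of 8 tested, 1 was higher and 4 were lower in Xap5 KO, none was higher and 5 were lower in Nono KO, and none was higher and 6 were lower in Sox5 KO. The shares of all tested genes called lower were 22.3%, 25.1% and 30.3%, and those called higher 23.2%, 23.5% and 30.6%. Id4, a further Id gene, stood at 11.6 CPM in WT and at 16.3, 5.22 and 4.44 in Xap5, Nono and Sox5 KO. Its Xap5 KO libraries (14.1 to 19.2 CPM) were above WT (11.4 to 11.8 CPM), unlike those of Id1, Id2 and Id3. Msx1, Msx2, Dlx5 and Hamp were at 0 in all 11 libraries. Tmem100, a membrane protein induced by BMP in endothelium, had 100 and 131 counts in WT, 0 to 8 in Xap5 KO, 40 to 75 in Nono KO and 0 in Sox5 KO. It fell in Xap5 KO (-4.98, SE 0.8, adjusted p = 4.43e-05) and was at least 26.8-fold lower in Sox5 KO (adjusted p = 1.96e-06), while Nono KO was not called (-1.01, adjusted p = 0.221). With only the groups compared, Tmem100 was called lower in Nono KO (-0.99, adjusted p = 0.0484). The transcription factor gene Atoh8 went from 69.0 CPM to 49.2, 24.1 and 14.0, by -0.49 (SE 0.15, adjusted p = 0.0174), -1.52 (SE 0.152, adjusted p = 1.56e-06) and -2.31 (SE 0.157, adjusted p = 1.42e-08). The Xap5 KO call of Atoh8 was lost without WT replicate 2 (adjusted p = 0.119) and with only the groups compared (0.142). Either offset lost it too (0.342 for the chromosome and 0.135 for length and GC content). Gata2 fell from 20.4 CPM to 5.64, 11.6 and 7.61, by -1.86 (adjusted p = 3.36e-09), -0.82 (adjusted p = 0.000123) and -1.42 (adjusted p = 7.14e-08).

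The E proteins that Id proteins bind stayed abundant. Tcf3 fell from 170.6 CPM in WT to 107.5, 136.3 and 111.5 in Xap5, Nono and Sox5 KO, by -0.67 (adjusted p = 9.71e-09), -0.32 (adjusted p = 0.000119) and -0.61 (adjusted p = 1.45e-08). Its Nono KO call was lost with the offset for length and GC content (-0.13, adjusted p = 0.0692). Tcf4 was lower in Xap5 KO (-0.44, adjusted p = 2.55e-05) and Sox5 KO (-0.50, adjusted p = 2.87e-06), though the latter was 0.10 with the offset for length and GC content, and it was not called in Nono KO (0.16, adjusted p = 0.0653). The Nono KO value was called higher under DESeq2 (0.17, adjusted p = 0.0461), edgeR's RLE scaling (0.17, adjusted p = 0.047), the chromosome offset (0.29, adjusted p = 0.00114), the length and GC offset (0.16, adjusted p = 0.0335) and only the groups compared (0.18, adjusted p = 0.00596). It was also called without Xap5 KO replicate 3 (adjusted p = 0.0462) and without Sox5 KO replicate 1 (0.0327) or 3 (0.0432). Tcf12 was not called in Xap5 KO (-0.04, adjusted p = 0.561). It was higher in Nono KO (0.26, adjusted p = 0.000538; -0.09 relative to the chromosome) and lower in Sox5 KO (-0.29, adjusted p = 0.00013; 0.09 with the offset for length and GC content).

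**Figure D4:**
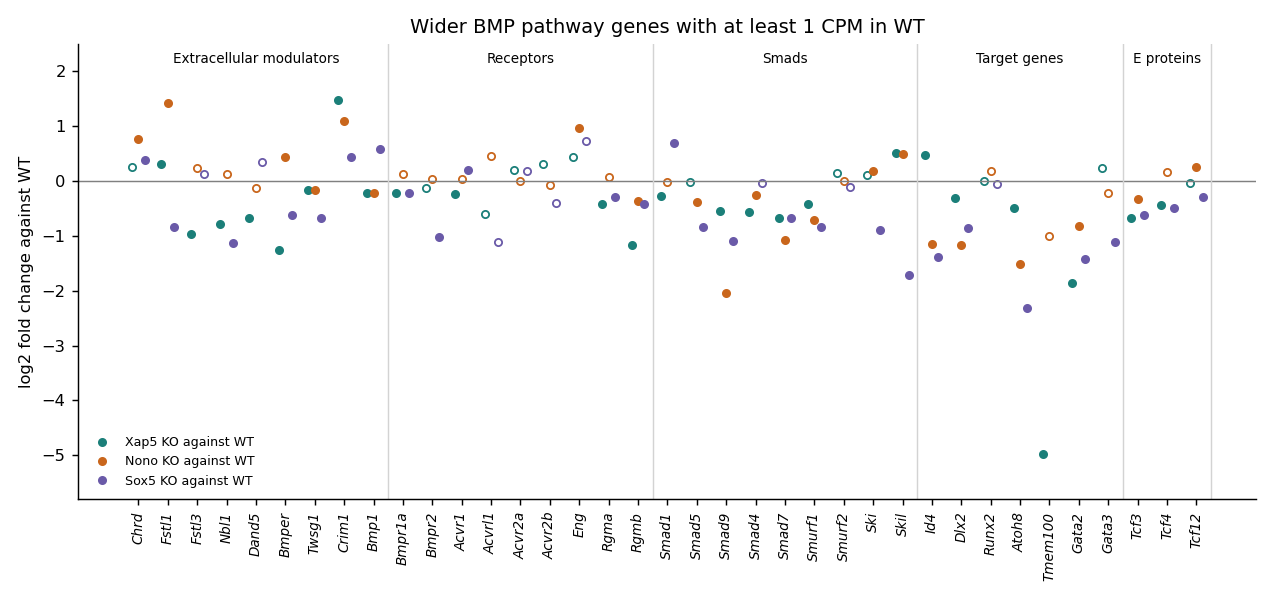
Log2 difference against WT (vertical axis) of 37 tested pathway genes with a mean of at least 1 CPM in WT, by role, with 3 points per gene for Xap5, Nono and Sox5 KO; filled points passed an adjusted p under 0.05. Tmem100 in Sox5 KO has 0 counts and is not drawn; Bmpr2 is lowest in Sox5 KO at -1.02 and Smad9 in Nono KO at -2.05.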

How the data were processed

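RNA-seq of 11 NIH/3T3 libraries was available as 1 table of whole-number gene counts that the authors deposited; they were taken as estimated counts, rounded by the authors, because 3302 entries equal 2 and 857 equal 1, so nothing was rounded here. The tools HISAT2 2.1.0, StringTie 1.3.3b and DESeq2 1.12.4 and the build GRCm39 are named per the submitters' processing notes, and the handling of strand is not given in the sources used here. Of the 21684 genes, 5060 were at 0 in every library.

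All libraries entered 1 fit with edgeR 4.0.16 in R 4.3.3, with TMM scaling, edgeR's expression filter (minimum count 10, minimum total 15; 13332 genes kept) and the quasi-likelihood test with its robust option. Benjamini-Hochberg adjustment was made over all tested genes. The biological coefficient of variation was 10.6%. CPM (counts scaled to depth) used the TMM-scaled library size, and CPM per kb the summed exon length. The fit was tested on simulated data in which few genes were changed, in Nono KO alone and evenly up and down. That test does not cover data with as many called genes as here. Alternatives were other scalings (edgeR's RLE, library totals), no filter, DESeq2 1.42.0, a replicate block, offsets for the chromosome median and for length and GC content, only the groups compared, a fold threshold, and leaving out each library.

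Lengths, chromosomes and neighbours came from GENCODE M21 on GRCm38 by gene ID (21540 matched, 144 did not). Because that build differs, no gene coordinates are printed; promoters came from RefSeq on GRCm38.p6. Named pathway genes were, in each role, the 3 or fewer with the largest log2 difference among those called against WT in at least 1 knockout, of which 1 is not reported here; profile neighbours were the 5 (Grem1) or 3 most alike. Members and lists were chosen with earlier results of these data known.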

Additional observations from a re-analysis of the deposited data

How the results depend on the processing

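Of 570 values of the 5 tested members under alternatives other than the fold threshold, 549 kept their direction and their side of the threshold. Requiring a log2 difference of at least 1 lowered the members called from 5 to 1, from 4 to 3 and from 4 to 2 in Xap5, Nono and Sox5 KO. The pathway genes called went from 28 to 7, from 24 to 9 and from 32 to 13 in the same order, since the rule leaves out smaller differences. Of all 13332 tested genes, it kept 756 higher and 614 lower in Xap5 KO, 867 and 624 in Nono KO, and 1106 and 1183 in Sox5 KO. Leaving out 1 library at a time, the members called against WT numbered 4 to 5, 3 to 4 and 4 to 4 in Xap5, Nono and Sox5 KO. Between the knockouts they numbered 4 to 4 (Nono KO against Xap5 KO), 4 to 5 (Sox5 KO against Xap5 KO) and 3 to 4 (Sox5 KO against Nono KO). Pathway genes called against WT numbered 19 to 28, 18 to 26 and 28 to 32. The share of all tested genes called in these fits is not given here. These ranges therefore do not show a change particular to the BMP genes. The sign turned, with the cause not tested, for Id3 in Sox5 KO against Xap5 KO with the length and GC offset (-0.15), Smad6 in Nono KO against Xap5 KO with the chromosome offset (-0.11), Bambi in Nono KO against WT without WT replicate 2 (-0.41 to 0.07 over the libraries left out), Scg5 in Xap5 KO against WT (-0.47 to 0.48 over the libraries left out, 0.03 with the replicate block), Arhgap11a in Xap5 KO with the chromosome offset (-0.08) and in Nono KO with library totals alone (-0.09), Bmpr2 and Tcf4 in Nono KO with library totals alone (-0.13 and -0.0), Tcf12 in Nono KO with the chromosome offset (-0.09), and Tcf12 and Tcf4 in Sox5 KO with the length and GC offset (0.09 and 0.1). Under library totals alone the median gene stood at -0.183 for Nono KO and -0.12 for Sox5 KO, and the calls in Nono KO from 3134 higher and 3342 lower to 2157 and 4989. Same-numbered libraries of different genotypes deviated from their group means with correlations of -0.0226 to 0.0465, and different-numbered ones with -0.0465 to 0.0165. Centring on means of 2 or 3 libraries constrains these correlations, so they do not settle whether the numbers pair libraries. With the replicate block the members called stayed at 5, 4 and 4 against WT. Of the values named here, 100 kept their call and 2 lost it. These were Scg5 in Sox5 KO (-1.43, adjusted p = 0.0686) and Tll1 in Xap5 KO, which is given as a description only. Depth limits the genes with few counts in a group, among them Bmp2, Bmp4, Nog, Gdf5, Tll1, Fst and Scg5, and the folds of Grem1, Tmem100, Pparg and Col2a1 that are given as lower bounds.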

Other observations

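Some lineage genes that BMP signalling is known to influence also differed between the genotypes, and others stayed near WT. Runx2, counted above among the target genes, stood at 74.3 CPM in WT and at 74.6, 84.3 and 71.8 in Xap5, Nono and Sox5 KO. Of 3 osteoblast markers tested, 0 were higher and 1 lower in each knockout. Of 3 chondrocyte markers, 0, 0 and 1 were higher and 2, 1 and 1 lower. Of 3 adipocyte markers, 1, 2 and 1 were higher and 1 lower in each. Sox9, the master regulator of cartilage, was at 340.8 CPM in WT and fell to 143.3, 194.0 and 106.1 in Xap5, Nono and Sox5 KO, by log2 differences of -1.25 (SE 0.0749, adjusted p = 1.66e-11), -0.81 (SE 0.0748, adjusted p = 1.08e-08) and -1.68 (SE 0.0755, adjusted p = 7.42e-14) (edgeR). The cartilage collagen gene Col2a1 was at 1.26 CPM in WT and 11.2 in Sox5 KO, called higher at 3.15 (SE 0.792, adjusted p = 0.00731), a call lost without WT replicate 1 (adjusted p = 0.0632). In Xap5 KO, Col2a1 had 0 to 3 counts and was at least 16.3-fold lower than in WT (adjusted p = 0.00663). In Nono KO it had 2 to 34 counts, at a mean of 0.311 CPM, and was not called. Without Nono KO replicate 2 it was called lower there (-4.51, adjusted p = 3.34e-06). Acta2, smooth muscle actin, rose from 144.3 CPM to 1635.1, 2168.2 and 2840.1, by 3.50 (SE 0.107, adjusted p = 3.85e-14), 3.91 (SE 0.109, adjusted p = 9.04e-15) and 4.30 (SE 0.111, adjusted p = 2.49e-15). Lpl, lipoprotein lipase, rose from 11.2 CPM to 192.4, 246.1 and 381.3. Pparg, the regulator of fat cell formation, had 38 and 62 counts in WT, 0 to 4 in Xap5 KO, 0 in Nono KO (at least 14.5-fold lower) and 2 to 7 in Sox5 KO; it passed the filter through WT, where it was highest, and is given as a description. Of the 5 smooth muscle markers, Acta2 among them, 3 were higher and 0 lower in Xap5 KO, 4 and 0 in Nono KO, and 3 and 1 in Sox5 KO. The 10 fibroblast markers differed among themselves: 3 were higher and 5 lower in Xap5 KO, 8 higher and none lower in Nono KO, and 6 higher and 3 lower in Sox5 KO. Of all tested genes, 23.2%, 23.5% and 30.6% were called higher and 22.3%, 25.1% and 30.3% lower. Col1a1, a type I collagen gene, rose from 1089.6 CPM to 1988.0, 6972.8 and 1768.0, whereas the matrix gene Lum went from 51.2 CPM to 11.6, 202.4 and 3.98 and fibronectin (Fn1) from 13960.5 to 8893.8, 20505.4 and 6298.7. Apart from Runx2, these genes were taken from marker lists. They name no cell type here, and they are compared with the same WT libraries as the members.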
